A study of Mus musculus with 12 samples.

Results

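Ahr, Arnt, Tiparp, Cyp1a1 and Cyp1a2, the aryl hydrocarbon receptor (AHR), its DNA-binding partner and 3 of their target genes, were read by gene symbol in RNA-seq counts of mouse liver. They are 5 of the 23420 genes listed in each of the 2 deposited count tables, and all 5 passed the filter on low counts in every comparison. The liver came from C57BL/6 mice in 4 groups of 3 libraries, 12 in all. Tsc1/p62Δhep livers (p62F/F; Tsc1F/F; Alb-Cre) lack Tsc1, which encodes a brake on the growth kinase complex mTORC1, and Sqstm1, which encodes the autophagy adaptor and signalling scaffold p62. Tsc1Δhep livers (Tsc1F/F; Alb-Cre) lack Tsc1, p62Δhep livers (p62F/F; Alb-Cre) lack p62, and p62F/F livers carry floxed p62 and, by the labels, no Cre. Alb-Cre is active in hepatocytes, and the labels call the deletions specific to hepatocytes. Whether all other liver cells keep both genes was not tested. Because p62F/F alone lacks Cre, Cre and loss of p62 cannot be told apart in p62Δhep against p62F/F. Nor can Cre be told apart from the deletions when Tsc1Δhep or Tsc1/p62Δhep is set against p62F/F. Cre also does not cancel when the p62 effects with and without Tsc1 are compared. The sources used here do not give age, sex or diet per sample, or whether a piece was tumour.

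AHR is a receptor that waits in the cytoplasm, bound to HSP90 chaperones and their partners, until a small molecule such as a dioxin, a plant indole or a kynurenine metabolite binds it. It then enters the nucleus, pairs with ARNT and binds DNA at sites built around the core letters GCGTG. In liver it induces the cytochromes Cyp1a1 and Cyp1a2, which oxidise aromatic hydrocarbons, aromatic amines, caffeine and estrogens. It also induces Tiparp, whose product ADP-ribosylates AHR and limits its activity. Cyp1a1 is nearly silent in liver without an agonist. Cyp1a2 is made there all the time, mostly in the hepatocytes around the central vein.

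The promoters are shown because AHR acts through them and because Cyp1a1 and Cyp1a2 are neighbours that point away from each other, their starts 13958 bases apart. Each is the stretch of 250 bases before to 50 bases after the start in RefSeq's GRCm38.p6, written 5′ to 3′ on the gene's strand, with GCGTG or its reverse complement CACGC in capitals. Of the 5 genes, 4 had an entry, at chr9:57697363-57697662 on the plus strand for Cyp1a1, at chr9:57683606-57683905 on the minus strand for Cyp1a2, at chr3:65528197-65528496 on the plus strand for Tiparp and at chr3:95434140-95434439 on the plus strand for Arnt.
Cyp1a1: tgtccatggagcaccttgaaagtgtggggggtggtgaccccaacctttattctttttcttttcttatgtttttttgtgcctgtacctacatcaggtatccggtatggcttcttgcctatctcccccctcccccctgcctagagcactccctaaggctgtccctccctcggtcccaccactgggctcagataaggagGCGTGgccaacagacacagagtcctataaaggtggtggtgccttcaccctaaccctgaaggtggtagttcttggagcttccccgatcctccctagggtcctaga
Cyp1a2: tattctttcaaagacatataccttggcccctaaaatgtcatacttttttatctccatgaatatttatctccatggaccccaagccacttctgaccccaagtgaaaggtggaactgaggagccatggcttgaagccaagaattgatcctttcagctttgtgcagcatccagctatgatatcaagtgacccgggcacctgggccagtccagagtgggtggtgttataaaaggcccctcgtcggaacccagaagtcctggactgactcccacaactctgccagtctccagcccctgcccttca
Tiparp: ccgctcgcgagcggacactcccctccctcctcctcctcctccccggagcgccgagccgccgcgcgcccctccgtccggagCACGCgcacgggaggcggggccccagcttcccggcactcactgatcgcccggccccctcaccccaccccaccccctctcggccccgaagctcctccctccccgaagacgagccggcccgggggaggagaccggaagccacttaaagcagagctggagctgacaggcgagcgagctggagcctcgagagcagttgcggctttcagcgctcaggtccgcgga
Arnt: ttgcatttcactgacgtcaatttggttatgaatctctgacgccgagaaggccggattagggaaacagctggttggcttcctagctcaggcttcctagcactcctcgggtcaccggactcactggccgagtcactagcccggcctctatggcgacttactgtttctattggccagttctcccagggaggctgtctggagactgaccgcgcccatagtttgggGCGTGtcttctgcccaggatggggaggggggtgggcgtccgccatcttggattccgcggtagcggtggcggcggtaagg
On either strand, GCGTG was found once in the Cyp1a1 promoter, 54 bases before the start, once in Tiparp, 170 bases before, and once in Arnt, 29 bases before. It was not found in these 300 bases of Cyp1a2. The longer TNGCGTG, which contains GCGTG, was found in 0 of the 4. Among 32851 mouse promoters of this length, 32.4% held GCGTG and 5.07% held TNGCGTG. A match describes the letters and does not show a bound site.

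The libraries held 15792048 to 33377247 counts. Sqstm1 had 12.7 to 20.4 CPM (counts scaled to library size) in the 6 p62-deleted libraries, against 771 to 1167 CPM in Tsc1Δhep and 327 to 358 CPM in p62F/F. Tsc1 had 5.27 to 13.3 CPM in the 6 Tsc1-deleted libraries, against 26.8 to 41.0 CPM in the others. Both targeted genes followed the labels. Tsc1Δhep library 3 held the most Tsc1 of its group, and leaving it out changed several calls below. The Tsc1-deleted groups and the Tsc1-intact groups lie in different tables, so the Tsc1 genotype and anything that differs between the tables cannot be told apart. Rn45s, a precursor of ribosomal RNA, made up 0.0751% to 1.21% of counts in the Tsc1-deleted table, against 1.91% to 3.5% in the other. All CPM values below are on 1 scale over the 12 libraries (TMM), and per-gene errors are SD with n = 3. In these bulk samples, fewer cells of a type and less RNA per cell cannot be told apart.

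In liver without Tsc1, additional loss of p62 went with far more receptor and far more Cyp1a2. Ahr, the receptor, was 8.01-fold higher and Cyp1a2 was 37.4-fold higher in Tsc1/p62Δhep than in Tsc1Δhep. Arnt, Tiparp and Cyp1a1 did not pass the test. These 2 calls among the 5 genes stand beside 24.2% of the 12620 genes called in this comparison, 1167 higher and 1886 lower.

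Ahr had 113, 68.9 and 120 CPM in the Tsc1/p62Δhep libraries, against 7.27, 15.3 and 15.1 CPM in the Tsc1Δhep libraries. The groups did not overlap, with Tsc1Δhep library 1 the lowest of all 12. The log2 fold change was 3.00 (SE 0.37, 95% interval 2.14 to 3.86, adjusted p = 0.00244 by the quasi-likelihood test in edgeR, adjusted by Benjamini-Hochberg). Arnt, the partner without which AHR does not bind DNA, had 54.6, 47.6 and 39.6 CPM in Tsc1/p62Δhep, against 23.7, 31.1 and 53.7 CPM in Tsc1Δhep. The groups overlapped because Tsc1Δhep library 3 lay far above the other libraries of its group, and the log2 fold change was 0.39 (−0.36 to 1.13, adjusted p = 0.396).

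Tiparp, the target that restrains the receptor, had 15.0, 12.3 and 13.6 CPM in Tsc1/p62Δhep, against 39.9, 24.1 and 13.2 CPM in Tsc1Δhep. The double-deleted libraries lay close together, while the Tsc1Δhep libraries were spread, with library 3 the lowest and within the range of the double-deleted ones. Its log2 fold change was −0.92 (−1.83 to −0.02, adjusted p = 0.12). Without Tsc1Δhep library 3, Arnt passed as higher (0.80, adjusted p = 0.0264) and Tiparp as lower (−1.21, adjusted p = 0.0106), so 4 of the 5 genes were then called, beside 5825 of 12852 genes overall. Without that library and Tsc1/p62Δhep library 1 together, Tiparp passed (−1.28, adjusted p = 0.0363) and Arnt did not.

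Cyp1a2, the cytochrome that liver makes at rest, had 942, 824 and 715 CPM in Tsc1/p62Δhep, against 11.5, 27.8 and 27.2 CPM in Tsc1Δhep. The lowest double-deleted library was thus far above the highest Tsc1Δhep library, and the log2 fold change was 5.22 (SE 0.423, 4.24 to 6.21, adjusted p = 0.000624). Cyp1a1, the cytochrome that responds most to agonists, had 1.23, 1.34 and 3.42 CPM in Tsc1/p62Δhep, against 1.25, 1.17 and 1.05 CPM in Tsc1Δhep, which is 18, 21 and 54 counts against 30, 44 and 23 counts. Only Tsc1/p62Δhep library 3 stood above the rest, the groups overlapped, and the log2 fold change was 0.78 (−0.35 to 1.92, adjusted p = 0.262). The 2 cytochromes are close paralogs, and how reads common to both were counted is not given, so Cyp1a1 levels beside abundant Cyp1a2 are uncertain. Among all genes tested, 45.8% did not overlap between these groups, as Ahr and Cyp1a2 did not.

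**Figure D1:**
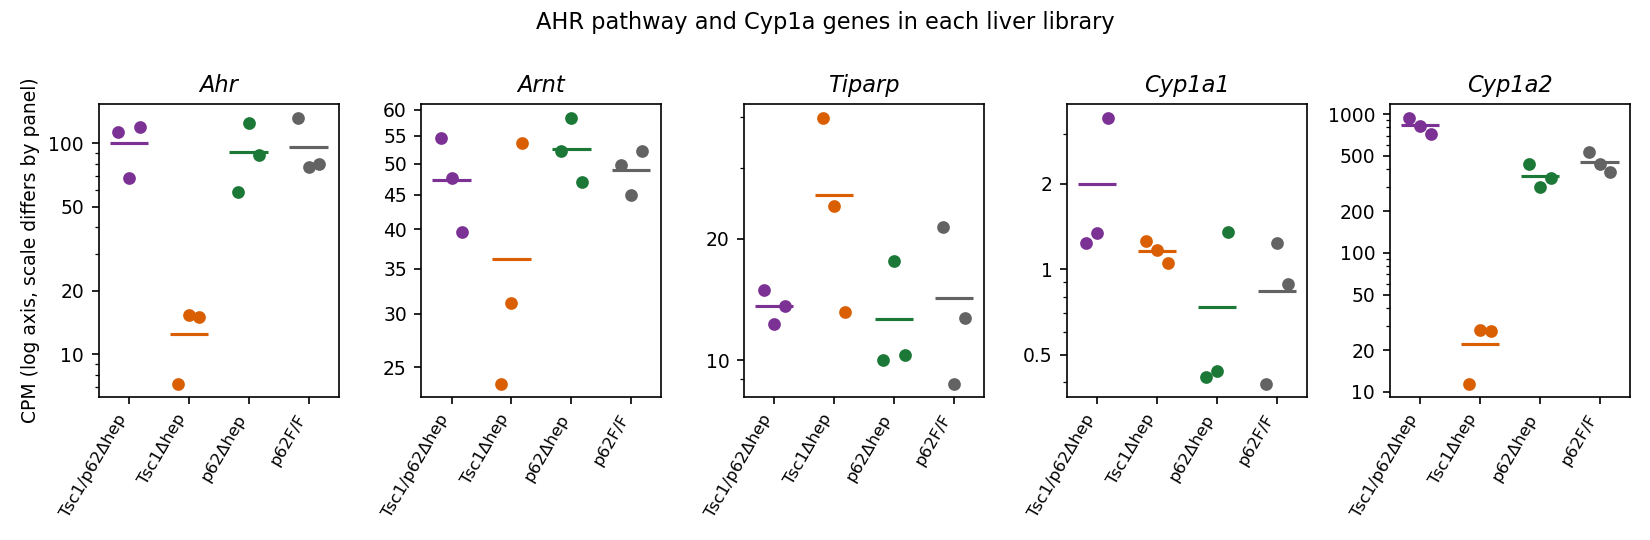
CPM of the 5 genes in each of the 12 libraries, on a log axis whose range differs by panel. Points are libraries and lines are group means. Ahr and Cyp1a2 are low in all 3 Tsc1Δhep libraries (7.27 to 15.3 CPM and 11.5 to 27.8 CPM), while Arnt, Tiparp and Cyp1a1 overlap between Tsc1/p62Δhep and Tsc1Δhep.

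In liver with intact Tsc1, p62Δhep and p62F/F did not differ detectably for any of the 5 genes. None was called, against 0.0159% of 12567 genes, and none was called by DESeq2 or limma or had an unadjusted p under 0.05 with edgeR. Each overlapped between the groups, where 13.0% of genes did not overlap. Ahr had 59.0, 125 and 88.3 CPM in p62Δhep, against 132, 76.8 and 79.8 CPM in p62F/F. Cyp1a2 had 440, 298 and 344 CPM in p62Δhep, against 531, 440 and 385 CPM in p62F/F. For both genes, the range from lowest to highest library within each group was wider than the difference of the group means. The log2 fold change was −0.09 for Ahr (−0.82 to 0.63, adjusted p = 0.961) and −0.33 for Cyp1a2 (−0.80 to 0.13, adjusted p = 0.711).

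Arnt had 52.1, 58.5 and 47.0 CPM in p62Δhep, against 49.8, 44.9 and 52.2 CPM in p62F/F. Tiparp had 10.001, 17.6 and 10.3 CPM in p62Δhep, against 21.4, 8.76 and 12.8 CPM in p62F/F. Arnt was the steadiest of the 5, its log2 fold change being 0.09 (−0.19 to 0.38, adjusted p = 0.874), while Tiparp's interval was wide (−0.19, −1.01 to 0.64, adjusted p = 0.921). Cyp1a1 had 0.42, 0.44 and 1.35 CPM in p62Δhep, against 0.39, 1.23 and 0.88 CPM in p62F/F. At 7 to 32 counts a library, a several-fold change of Cyp1a1 either way was not excluded by its interval (log2 fold change −0.17, −1.58 to 1.24, adjusted p = 0.963).

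Whether p62 loss acted differently with and without Tsc1 was tested directly, as the log2 fold change of Tsc1/p62Δhep against Tsc1Δhep minus that of p62Δhep against p62F/F. It passed for Ahr, at 3.08 on the log2 scale (SE 0.515, 1.96 to 4.21, adjusted p = 0.00348), and for Cyp1a2, at 5.55 (SE 0.462, 4.54 to 6.55, adjusted p = 0.000132). Both were thus raised with p62 loss in Tsc1-deleted liver by more than in Tsc1-intact liver, where p62 loss came together with Cre. It did not pass for Arnt (0.28, −0.51 to 1.08, adjusted p = 0.612), Tiparp (−0.74, −1.98 to 0.50, adjusted p = 0.381) or Cyp1a1 (0.95, −0.84 to 2.74, adjusted p = 0.436). Of 13231 genes, 16.1% passed this test, in either direction. Without Tsc1Δhep library 3 it passed for Arnt too (0.70, adjusted p = 0.0381).

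Set against p62F/F, Tsc1Δhep was the group that stood apart. Ahr fell 7.65-fold (log2 fold change −2.94, SE 0.384, −3.77 to −2.10, adjusted p = 0.000252), with 12.6 ± 4.58 CPM in Tsc1Δhep, against 96.3 ± 31.2 CPM in p62F/F. Cyp1a2 fell 20.4-fold (−4.35, SE 0.351, −5.11 to −3.58, adjusted p = 1.45e-05), with 22.2 ± 9.28 CPM in Tsc1Δhep, against 452 ± 73.6 CPM in p62F/F. Neither overlapped, where 37.9% of 13231 genes were called and 46.1% did not overlap. Arnt (−0.44, adjusted p = 0.197), Tiparp (0.85, adjusted p = 0.114) and Cyp1a1 (0.45, adjusted p = 0.557) did not pass. Without Tsc1Δhep library 3, Arnt passed as lower (−0.84, adjusted p = 0.00285) and Tiparp as higher (1.17, adjusted p = 0.0198). Tiparp also passed without p62F/F library 1 (1.25, adjusted p = 0.0494).

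Tsc1/p62Δhep had 2.29-fold more Cyp1a2 than p62Δhep, 827 ± 114 CPM in Tsc1/p62Δhep and 360 ± 72.4 CPM in p62Δhep (log2 fold change 1.198, SE 0.31, 0.52 to 1.87, adjusted p = 0.0166). The groups did not overlap. In that comparison 23.8% of genes were called and 51.0% did not overlap. The call was lost without Tsc1/p62Δhep library 1 (adjusted p = 0.0584), p62Δhep library 2 (adjusted p = 0.0715) or p62Δhep library 3 (adjusted p = 0.0638). Ahr differed little, at 0.15 (−0.63 to 0.92, adjusted p = 0.802). Cyp1a1 reached 1.41 on the log2 scale (0.13 to 2.68, adjusted p = 0.102) and passed without p62Δhep library 3 (2.21, adjusted p = 0.0458). Arnt (−0.15, adjusted p = 0.708) and Tiparp (0.11, adjusted p = 0.874) did not pass.

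Against p62F/F, Tsc1/p62Δhep had 1 gene close to the threshold and none past it, with 1 at an unadjusted p under 0.05. The log2 fold change of Cyp1a2 was 0.87 (0.20 to 1.54, adjusted p = 0.0663) with groups that did not overlap, and it passed with DESeq2 (0.89, adjusted p = 0.0207) and without Tsc1Δhep library 1 (adjusted p = 0.00859) or Tsc1Δhep library 3 (adjusted p = 0.0443), which enter the shared estimate of spread. Ahr was 0.06 (−0.71 to 0.84, adjusted p = 0.921), Arnt −0.05 (adjusted p = 0.911), Tiparp −0.07 (adjusted p = 0.924) and Cyp1a1 1.24 (−0.03 to 2.51, adjusted p = 0.156). Cyp1a1 did not overlap either, though the nearest libraries both had 1.23 CPM. Here 20.0% of genes were called and 50.5% did not overlap. These comparisons share libraries, so their values are not independent of each other.

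**Figure D2:**
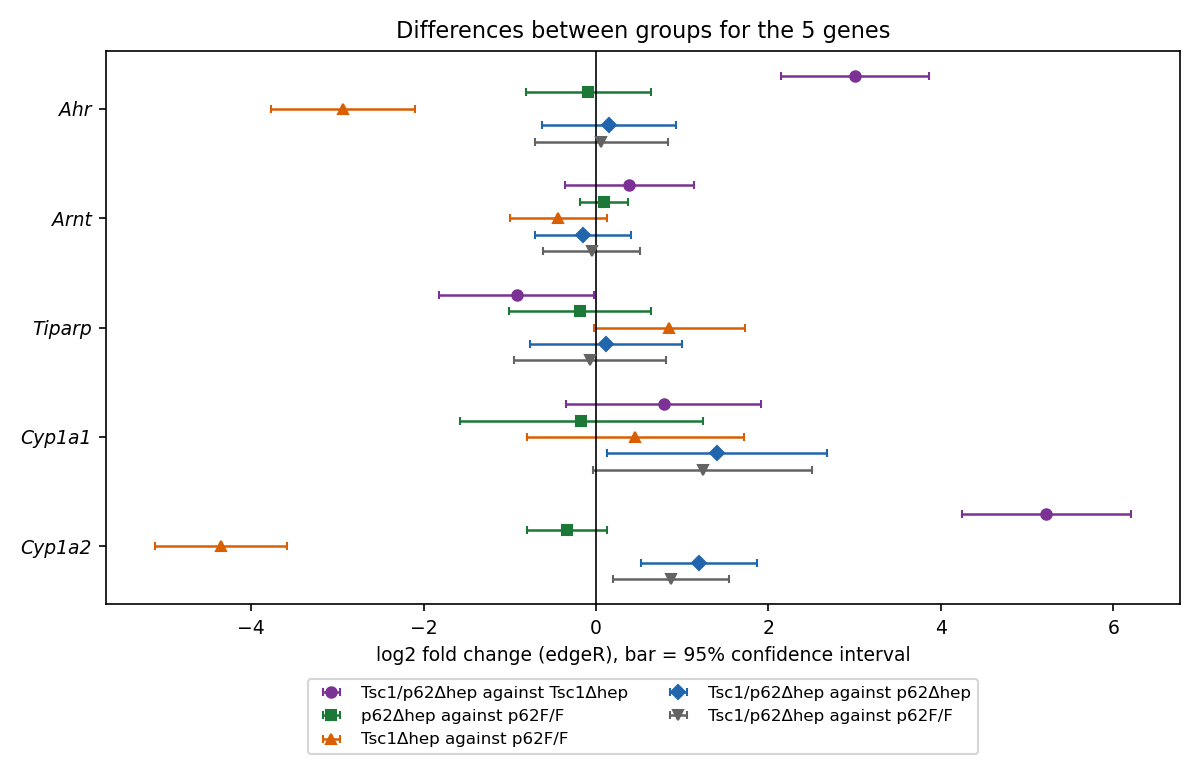
Log2 fold change of the 5 genes in 5 group comparisons, with 95% intervals from edgeR. Ahr and Cyp1a2 lie far right of 0 for Tsc1/p62Δhep against Tsc1Δhep (3.00 and 5.22) and far left for Tsc1Δhep against p62F/F (−2.94 and −4.35), while intervals of Arnt include 0 throughout.

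Per kilobase of transcript, Cyp1a2 was the most abundant of the 5 in every group and Cyp1a1 the least. Cyp1a2 had 426 ± 58.7 CPM per kb in Tsc1/p62Δhep, 11.4 ± 4.78 in Tsc1Δhep, 186 ± 37.3 in p62Δhep and 233 ± 38.0 in p62F/F. Ahr had 18.1 ± 4.996 CPM per kb in Tsc1/p62Δhep, 2.26 ± 0.826 in Tsc1Δhep, 16.4 ± 5.97 in p62Δhep and 17.4 ± 5.63 in p62F/F. The order of the groups by mean Ahr was thus Tsc1/p62Δhep, p62F/F, p62Δhep and Tsc1Δhep, and the first 3 did not differ beyond their spread. Arnt had 10.9 ± 1.74 CPM per kb in Tsc1/p62Δhep, 8.36 ± 3.62 in Tsc1Δhep, 12.1 ± 1.32 in p62Δhep and 11.3 ± 0.86 in p62F/F. Receptor therefore exceeded partner by this measure in every group but Tsc1Δhep, where it was below. Tiparp was highest in Tsc1Δhep, at 6.14 ± 3.21 CPM per kb, and lowest in p62Δhep, at 3.02 ± 1.03. Cyp1a1 was highest in Tsc1/p62Δhep, at 0.74 ± 0.457, and lowest in p62Δhep, at 0.273 ± 0.198.

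Ratios within a library do not depend on scaling between libraries. There were 2.07, 1.45 and 3.03 Ahr counts per Arnt count in Tsc1/p62Δhep, 0.307, 0.493 and 0.281 in Tsc1Δhep, 1.13, 2.14 and 1.88 in p62Δhep and 2.66, 1.71 and 1.53 in p62F/F. Tsc1Δhep did not overlap with any other group. Per 1000 counts of albumin (Alb), the main hepatocyte transcript, Cyp1a2 had 20.2, 17.5 and 9.99 counts in Tsc1/p62Δhep, 0.69, 0.677 and 1.96 in Tsc1Δhep, 17.0, 9.43 and 14.1 in p62Δhep and 23.5, 8.17 and 6.71 in p62F/F. The other 3 groups overlapped by this ratio, and Tsc1Δhep lay below all of them. Cyp1a2 counts per Cyp1a1 count were 209 to 763 in Tsc1/p62Δhep, 9.13 to 25.9 in Tsc1Δhep, 255 to 1055 in p62Δhep and 357 to 1345 in p62F/F, so the balance of the paired cytochromes differed in Tsc1Δhep with no overlap.

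**Figure D3:**
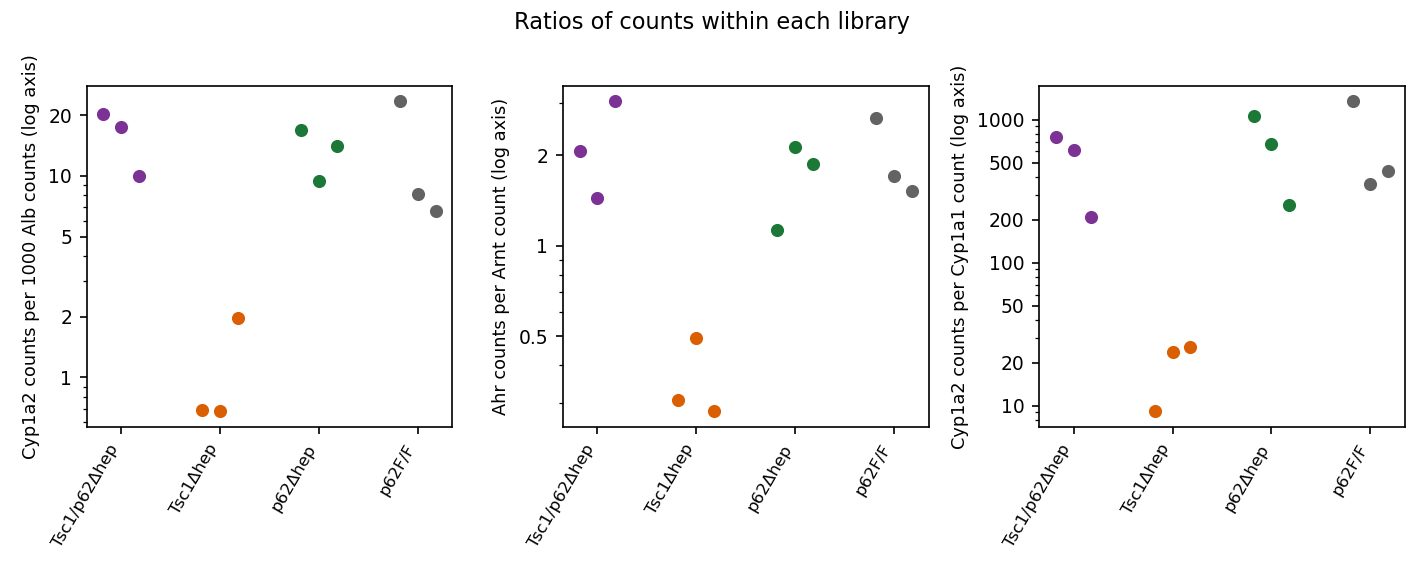
Ratios of deposited counts within each of the 12 libraries, on log axes, 1 point per library. Tsc1Δhep libraries lie below every other library for Cyp1a2 per 1000 Alb counts (0.677 to 1.96), Ahr per Arnt (0.281 to 0.493) and Cyp1a2 per Cyp1a1 (9.13 to 25.9).

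The genes that lie beside the Cyp1a pair on chromosome 9 did not pass the test for Tsc1/p62Δhep against Tsc1Δhep. In RefSeq's gene order Csk, a kinase that restrains Src, is next to Cyp1a2, and Edc3, an mRNA decapping factor, is next to Cyp1a1, followed by the kinase gene Clk3. For Tsc1/p62Δhep against Tsc1Δhep, the log2 fold change was 0.26 for Csk (adjusted p = 0.462), 0.66 for Edc3 (adjusted p = 0.0946) and 0.13 for Clk3 (adjusted p = 0.688). Edc3 fell in Tsc1Δhep against p62F/F (−0.59, adjusted p = 0.0306), with 9.85 ± 2.33 CPM in Tsc1Δhep and 14.9 ± 1.48 CPM in p62F/F. That call was lost without Tsc1Δhep library 1 (adjusted p = 0.0781), p62F/F library 1 (adjusted p = 0.0828) or p62F/F library 2 (adjusted p = 0.0914).

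Around the receptor itself, most of the cytoplasmic complex did not pass the test. Of 7 genes of the complex and its repressor, 6 could be tested for Tsc1/p62Δhep against Tsc1Δhep. Of these, 1 was higher and 0 were lower, beside 24.2% of all genes called. Their median log2 fold change was 0.00, beside −0.05 over all genes. The gene that rose was Ncoa1, a coactivator, with 32.7 ± 2.24 CPM in Tsc1/p62Δhep and 11.05 ± 4.28 CPM in Tsc1Δhep (1.57, adjusted p = 0.0104, and 0.0506 without Tsc1/p62Δhep library 2 or 0.0551 without Tsc1Δhep library 2). In Tsc1Δhep against p62F/F, the chaperone Hsp90aa1 (−1.52, adjusted p = 0.00333) and Ncoa1 (−1.27, adjusted p = 0.00192) fell. Ahrr, the AHR repressor that competes for ARNT, had only 4 counts in all of Tsc1/p62Δhep, 1 in Tsc1Δhep, 6 in p62Δhep and 6 in p62F/F, too few to test. The hypoxia factors Hif1a (0.51, adjusted p = 0.113) and Epas1 (1.23, adjusted p = 0.103), which also pair with ARNT, did not pass in Tsc1/p62Δhep against Tsc1Δhep. Epas1 fell in Tsc1Δhep against p62F/F (−1.59, adjusted p = 0.01).

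Other genes that AHR agonists induce differed in direction from Cyp1a2 in some comparisons and not in others. Of 14 listed, 13 were tested for Tsc1/p62Δhep against Tsc1Δhep, 1 was higher and 4 were lower, with a median log2 fold change of −0.72. Over all genes, 24.2% were called in this comparison. Without each library in turn, 0 to 1 were higher and 2 to 5 lower. Nqo1, a quinone reductase, had 10.1 ± 2.29 CPM in Tsc1/p62Δhep and 69.4 ± 35.3 CPM in Tsc1Δhep (−2.78, adjusted p = 0.00566). Gsta1, a glutathione transferase, had 2.82 ± 1.45 CPM in Tsc1/p62Δhep and 61.0 ± 39.8 CPM in Tsc1Δhep (−4.43, adjusted p = 0.00597). Htatip2 had 30.8 ± 1.35 CPM in Tsc1/p62Δhep and 206 ± 172 CPM in Tsc1Δhep (−2.75, adjusted p = 0.0143). Each was thus highest in Tsc1Δhep by group mean, where Ahr and Cyp1a2 were low.

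Nqo1 and Gsta1 are also known as targets of the oxidative stress factor NRF2. Chosen for mention after their values were seen, Gsta2 was lower (−1.89, adjusted p = 0.0181) and the UDP-glucuronosyltransferase Ugt1a6b was higher (0.87, adjusted p = 0.05 after rounding). Gsta1, Gsta2 and Ugt1a6b have close paralogs, so their counts are uncertain. Gsta2 lost its call without each of 4 libraries, at adjusted p up to 0.0798, Htatip2 without each Tsc1/p62Δhep library, at up to 0.0679, and Ugt1a6b without each of 5 libraries, at up to 0.167. In Tsc1Δhep against p62F/F, 6 of 13 were higher and 0 lower, beside 37.9% of all genes called. Their median was 1.72, beside 0.02 over all genes. There Nqo1 rose by 2.52 on the log2 scale (adjusted p = 0.000641), Gsta1 by 4.71 (adjusted p = 0.000801) and Htatip2 by 2.30 (adjusted p = 0.00259). For Tsc1/p62Δhep against p62Δhep, where Cyp1a2 was higher too, 7 of 13 were higher and 0 lower, beside 23.8% of all genes called. Their median was 1.12, and 5 to 7 were higher without each library in turn. When the double-deleted livers were set against p62F/F, 4 were higher and 0 lower, beside 20.0% of all genes called. Without p62F/F library 3, 1 was higher. Cyp1b1, the extrahepatic relative of Cyp1a1, was below 5 CPM in every library and was not called in any comparison over all libraries. Without Tsc1Δhep library 1 it passed as lower in Tsc1/p62Δhep against Tsc1Δhep (−1.98, adjusted p = 0.0274).

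Genes that make kynurenine, whose metabolites can activate AHR, were few enough to list. Of 5 such genes 3 were tested for Tsc1/p62Δhep against Tsc1Δhep, and 2 were higher, beside 24.2% of all genes called. Afmid, a formamidase, had 134 ± 43.0 CPM in Tsc1/p62Δhep and 43.4 ± 15.5 CPM in Tsc1Δhep (1.62, adjusted p = 0.0168), and Ido2 had 136 ± 19.0 CPM in Tsc1/p62Δhep and 42.5 ± 27.0 CPM in Tsc1Δhep (1.68, adjusted p = 0.0393). Tdo2, the main tryptophan-cleaving enzyme of liver, did not pass (0.37, adjusted p = 0.349), and it rose in Tsc1Δhep against p62F/F (1.16, adjusted p = 0.00881). Afmid was not called without Tsc1/p62Δhep library 1 (adjusted p = 0.0719) or library 2 (adjusted p = 0.0682), and Ido2 was not called without each of 4 libraries, at adjusted p up to 0.135.

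Among 5 liver regulators linked to Cyp1a2, Nr1i3 moved as strongly as Cyp1a2 itself. Nr1i3 encodes the xenobiotic receptor CAR and had 90.5 ± 4.54 CPM in Tsc1/p62Δhep, 2.52 ± 1.28 CPM in Tsc1Δhep, 45.1 ± 19.2 CPM in p62Δhep and 99.7 ± 80.5 CPM in p62F/F. It rose in Tsc1/p62Δhep against Tsc1Δhep (log2 fold change 5.15, SE 0.439, adjusted p = 0.000787) and fell in Tsc1Δhep against p62F/F (−5.29, SE 0.625, adjusted p = 0.000147). In Tsc1/p62Δhep against Tsc1Δhep, Hnf4a (0.56, adjusted p = 0.121), Nr1i2, which encodes PXR (0.02, adjusted p = 0.959), and Ctnnb1, which encodes β-catenin (0.13, adjusted p = 0.686), did not pass.

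Markers of hepatocytes around the central vein, where Cyp1a2 and Nr1i3 are mainly made, were low in Tsc1Δhep as well. For Tsc1/p62Δhep against Tsc1Δhep, 6 of 10 pericentral markers were higher and 0 lower, beside 24.2% of all genes called. Their median log2 fold change was 3.15. Glul, glutamine synthetase, had 1592 ± 43.1 CPM in Tsc1/p62Δhep and 290 ± 171 CPM in Tsc1Δhep (2.46, adjusted p = 0.00881). Oat, ornithine aminotransferase, rose by 5.09 on the log2 scale (adjusted p = 0.00936) and the WNT-responsive receptor gene Lgr5 by 4.20 (adjusted p = 0.0126). The count of pericentral markers called was 2 to 10 when each library was left out in turn. Oat was not called without Tsc1Δhep library 2 (adjusted p = 0.0506), nor Lgr5 without that library (adjusted p = 0.0599), Tsc1/p62Δhep library 1 (adjusted p = 0.0592) or library 2 (adjusted p = 0.0525). In Tsc1Δhep against p62F/F, 8 of the 10 were lower, with a median of −2.68, beside 37.9% of all genes called. The summed level of the 10 was 14522 to 14965 CPM in Tsc1/p62Δhep, 193 to 2026 CPM in Tsc1Δhep, 6887 to 10492 CPM in p62Δhep and 6329 to 11729 CPM in p62F/F. Chosen for mention after its values were seen, Cyp2e1 made up most of the Tsc1/p62Δhep sum. It had 11180 ± 971 CPM there and 583 ± 601 CPM in Tsc1Δhep. Between these groups Cyp2e1 did not pass with edgeR over all libraries (adjusted p = 0.0654). It passed as higher in Tsc1/p62Δhep with DESeq2 (adjusted p = 0.0167) and limma (adjusted p = 0.0398). With edgeR it also passed without Tsc1Δhep library 1 (adjusted p = 0.00173) or library 3 (adjusted p = 0.045). It was called lower in Tsc1Δhep against p62F/F. That call was lost without Tsc1Δhep library 2 (adjusted p = 0.101) or any p62F/F library, at adjusted p up to 0.0861. The part of the pericentral markers in the Ahr and Cyp1a2 results was not tested.

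Markers of other cells moved between Tsc1/p62Δhep and Tsc1Δhep, where 24.2% of all genes tested were called. Periportal markers summed to 7226 to 10735 CPM in Tsc1/p62Δhep and 4218 to 6597 CPM in Tsc1Δhep, with 6 of 9 higher and 2 lower. General hepatocyte markers summed to 98032 to 126538 CPM in Tsc1/p62Δhep and 48501 to 88862 CPM in Tsc1Δhep, with 1 of 8 higher and 0 lower. Bile duct (cholangiocyte) markers summed to 81.3 to 129 CPM in Tsc1/p62Δhep and 734 to 5054 CPM in Tsc1Δhep, with 2 of 5 lower. Spp1 made up most of that sum, at 92.8 ± 21.3 CPM in Tsc1/p62Δhep and 2623 ± 2185 CPM in Tsc1Δhep. Krt19, Krt7 and Epcam did not pass. These sums were higher for both kinds of hepatocyte marker and lower for duct markers in Tsc1/p62Δhep. Macrophage markers summed to 52.9 to 67.0 CPM in Tsc1/p62Δhep and 77.2 to 151 CPM in Tsc1Δhep, with 4 of 6 lower. Endothelial markers, with 1 of 5 lower, overlapped in sum. Stellate markers summed to 150 to 192 CPM in Tsc1/p62Δhep and 15.1 to 143 CPM in Tsc1Δhep, with 1 of 5 lower. Dcn, which did not pass, made up most of the Tsc1/p62Δhep sum, at 143 ± 21.0 CPM, against 44.1 ± 37.5 CPM in Tsc1Δhep. When each library was left out in turn, the count of macrophage markers called lower was 4 each time, that of duct markers 1 to 4, and that of periportal markers called higher 2 to 6. The defining gene of duct cells Krt19 and of macrophages Cd68 had counts in both groups. The part of these cells in the results was not tested.

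Genes whose profile over the 12 libraries was most like that of each member were found by the root mean square (RMS) difference of centred log2(CPM + 1) values among 10998 genes. For Cyp1a2 they were Nxpe2 (RMS 0.482), Nr1i3 (0.556), Rgn (0.613), the paraoxonase gene Pon1 (0.619) and Susd4 (0.676). For Ahr they were the plasma protease inhibitor gene Mug2 (0.365), Cpox of heme synthesis (0.404), Lgr5 (0.426), Tmem86b (0.426) and Gfra1 (0.437). Group differences are common to these profiles and set the likeness, so no test was made. For Tiparp they were Ftsjd1 (0.192), Fkbp14 (0.233), Vamp7 (0.243), Slc30a4 (0.247) and Rap1b (0.256), and for Arnt they included Med13 (0.0873), Ankhd1 (0.0944), Sox6 (0.0974) and Synj1 (0.101). Cyp1a1, at a mean of 23.9 counts a library, was below the minimum of 50.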

How the data were processed

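RNA was measured by poly(A) RNA-seq with a strand-directed kit, per the labels' protocols, as single-end reads of 75 nt on a NextSeq or paired-end reads on a HiSeq instrument. The sources used here do not give the instrument of each library, the aligner, the counter, the annotation or the use of strand. The authors deposited whole-number counts per gene in 2 tables of 6 libraries. The submitters' processing notes name hg19, although the gene symbols are those of mouse, so no coordinates were taken for the counted genes, and neighbour order came from RefSeq's mouse table. Promoter coordinates are RefSeq's own. Each table held 23420 genes, of which 27 names had turned into dates. Library pairs of a group had chi-square statistics of 36.2 to 325 per gene, so none was counted as 1 sample. No label states that the libraries are from different mice, so the p-values rest on a spread among libraries that could be technical.

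Groups followed the titles. Genes were filtered with edgeR's filterByExpr (10 counts, 15 in total), scaled by TMM and tested with the quasi-likelihood test of edgeR 4.0.16 in R 4.3.3, with Benjamini-Hochberg adjustment over all genes tested at 0.05. Comparisons within a table used its 6 libraries, and the others 1 model of all 12. Printed CPM values use TMM factors over the 12 libraries, likest genes use library totals and a pseudocount of 1, and per-length values use the longest coding GENCODE transcript. The scripts were tested on simulated counts. Alternatives were DESeq2 1.42.0, limma 3.58.1 on log2(CPM + 1), other scaling, no filter, a replicate block, 1 fit of all libraries and leaving out libraries. The checks of list counts and list genes under these settings were added after seeing the data. Named were the 5 genes, the 3 members with the smallest p of each list for Tsc1/p62Δhep against Tsc1Δhep, all members of lists of up to 7 genes, the neighbours and the likest genes. The results of 3 genes that this rule names are not reported here. Members and lists were chosen with earlier results of these data known.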

Additional observations from a re-analysis of the deposited data

Results flagged for a closer look

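The effect of p62 loss differed between Tsc1-deleted and Tsc1-intact liver, by the interaction test, for both genes named here. In Tsc1-intact liver that effect cannot be told apart from Cre. For Ahr the difference of the log2 fold changes was 3.08 (SE 0.515, adjusted p = 0.00348, edgeR's quasi-likelihood test), from 3.00 in Tsc1-deleted liver and −0.09 in Tsc1-intact liver. For Cyp1a2 it was 5.55 (SE 0.462, adjusted p = 0.000132), from 5.22 in Tsc1-deleted liver and −0.33 in Tsc1-intact liver. Both genes were lower in all 3 Tsc1Δhep libraries than in each of the other 9. Among 13231 genes, 16.1% passed the same test.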

How the results depend on the processing

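Ahr and Cyp1a2 kept their direction and call in Tsc1/p62Δhep against Tsc1Δhep, in the interaction and in Tsc1Δhep against p62F/F under every alternative run. Their adjusted p ranged over 2.75e-13 to 0.0158 for Ahr and 6.4e-41 to 0.00777 for Cyp1a2 in the first of these. The genes called in p62Δhep against p62F/F were 2, all lower, with 1020 at an unadjusted p under 0.05, and 182 with DESeq2, 4 with limma, 1 with all 12 libraries and 1 to 49 without 1 library. Those called in Tsc1/p62Δhep against Tsc1Δhep were 3053, 5201 with all 12 libraries and 1111 to 5825 without 1 library, the most without Tsc1Δhep library 3. Interaction calls were 2127, 3904 without Tsc1Δhep library 3 and Tsc1/p62Δhep library 1, and 1169 to 4952 without 1 library. Calls in Tsc1/p62Δhep against p62Δhep were 1733 to 4375, and against p62F/F 1176 to 3776, without 1 library.

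Without both libraries named, Tiparp passed in Tsc1/p62Δhep against Tsc1Δhep (−1.28) and in Tsc1Δhep against p62F/F (1.17, adjusted p = 0.0284), Arnt passed there (−0.84), and Ahr in Tsc1/p62Δhep against p62F/F was −0.012. Tiparp there was 0.014 with limma, and Cyp1a2 passed with DESeq2 (0.89). The cause was not tested.

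Without 1 library, log2 fold changes in p62Δhep against p62F/F were −0.39 to 0.20 for Ahr, −0.50 to 0.22 for Tiparp and −0.98 to 0.23 for Cyp1a1. In Tsc1/p62Δhep against Tsc1Δhep they were 0.17 to 0.80 for Arnt, −1.21 to −0.45 for Tiparp and 4.92 to 5.41 for Cyp1a2. In the interaction Arnt was 0.0595 to 0.70. In Tsc1Δhep against p62F/F they were −0.84 to −0.20 for Arnt and 0.39 to 1.25 for Tiparp. In Tsc1/p62Δhep against p62Δhep they were −0.0829 to 0.45 for Ahr, −0.0302 to 0.42 for Tiparp, 0.78 to 2.21 for Cyp1a1 and 1.08 to 1.37 for Cyp1a2. In Tsc1/p62Δhep against p62F/F they were −0.0771 to 0.37 for Ahr, −0.16 to 0.0662 for Arnt, −0.31 to 0.34 for Tiparp and 0.77 to 1.01 for Cyp1a2.

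Libraries with the same number did not deviate together (correlations −0.514 to 0.0368 in the p62 table and −0.125 to −0.0818 in the Tsc1 table), so the numbers do not pair samples. Across different numbers, the correlation was 0.533 for p62Δhep library 1 with p62F/F library 2, and 0.4 for p62Δhep library 2 with p62F/F library 1. The other pairs with different numbers lay at −0.173 to 0.161 in the p62 table and −0.0358 to 0.106 in the Tsc1 table. What such libraries may share is not given in the labels and was not tested. With a replicate block, 1 gene was called in p62Δhep against p62F/F and 1847 in Tsc1/p62Δhep against Tsc1Δhep, where Ahr was 3.03 (adjusted p = 0.0125) and Cyp1a2 5.31 (adjusted p = 0.00479). Depth limits Cyp1a1 most, at 7 to 54 counts a library.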

Other observations

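Among genes that supply electrons and heme to cytochromes, 3 of 10 passed as higher and 0 as lower for Tsc1/p62Δhep against Tsc1Δhep, with a median log2 fold change of 0.36. This share is near the 24.2% called over all genes, so it is not a result about the group. Por, the reductase that hands electrons to microsomal cytochromes, had 646 ± 180 CPM in Tsc1/p62Δhep, 206 ± 35.7 CPM in Tsc1Δhep, 166 ± 48.5 CPM in p62Δhep and 197 ± 46.6 CPM in p62F/F. It was higher in Tsc1/p62Δhep than in Tsc1Δhep (1.65, adjusted p = 0.00743) and than in p62Δhep (1.96, adjusted p = 0.0013, edgeR's quasi-likelihood test). Cpox, the coproporphyrinogen oxidase of heme synthesis, had 175 ± 60.7 CPM in Tsc1/p62Δhep, 29.3 ± 11.7 CPM in Tsc1Δhep, 165 ± 28.3 CPM in p62Δhep and 157 ± 30.9 CPM in p62F/F, and was low in Tsc1Δhep as Ahr was. Por did not share that pattern, since Tsc1Δhep lay at the level of p62F/F (0.06, adjusted p = 0.872). Alad, also of heme synthesis, passed in Tsc1/p62Δhep against Tsc1Δhep (1.09, adjusted p = 0.0276), though not without each Tsc1/p62Δhep library in turn, at adjusted p up to 0.0938.

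Periportal markers did not mirror the pericentral ones. Cyp2f2, a periportal cytochrome, had 1873 ± 299 CPM in Tsc1/p62Δhep, 532 ± 94.6 CPM in Tsc1Δhep, 392 ± 101 CPM in p62Δhep and 369 ± 42.3 CPM in p62F/F (1.82 for Tsc1/p62Δhep against Tsc1Δhep, adjusted p = 0.00376). Gls2, a periportal glutaminase, rose in the same comparison (1.63, adjusted p = 0.00861), while Cdh1, which encodes E-cadherin, fell (−1.28, adjusted p = 0.0179) and lost its call without Tsc1/p62Δhep library 1 (adjusted p = 0.0951) or library 2 (adjusted p = 0.0921). Periportal and pericentral markers could thus both be higher in Tsc1/p62Δhep than in Tsc1Δhep.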
